A study of Mus musculus with 6 samples.

Results

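Gpr3, 3 adenylyl cyclases (Adcy1, Adcy3 and Adcy8) and 6 cAMP phosphodiesterases (Pde4a, Pde4b, Pde4d, Pde1a, Pde2a and Pde10a) were followed through neuronal depolarization. These 10 genes were chosen by name for their place in cAMP signalling and were found by Ensembl identifier among the 43432 genes listed for each library. Primary neurons were taken from the cortex of wild-type C57BL/6 mouse embryos at E16.5, with male and female embryos pooled, and poly(A) RNA was sequenced at day 7 in culture. All groups had been silenced overnight with 1 µM tetrodotoxin (TTX), which blocks sodium channels, and 100 µM DL-AP5, which blocks NMDA receptors. They then received 55 mM KCl, which depolarizes neurons and opens their calcium channels, for 0 h, 2 h or 6 h, with 2 libraries per time point and 6 in all. Such a culture is a dissociated mix that also holds glia, and all its cells meet the KCl at the same moment. The labels give the libraries of a time point as biological duplicates, without saying which embryos or dishes they came from.

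cAMP is made from ATP by adenylyl cyclases and broken down by phosphodiesterases, and its level in a cell depends on both. Receptors coupled to the stimulatory G protein Gs switch the cyclases on. Gpr3 encodes an orphan receptor of this class that signals without an added ligand, and it is known from neurons and oocytes. Some cyclases and phosphodiesterases are themselves stimulated by calcium and calmodulin, so that calcium entry during depolarization acts on both synthesis and breakdown. In neurons cAMP acts through protein kinase A, exchange factors and cyclic nucleotide-gated channels, and it takes part in synaptic plasticity and in transcription through CREB.

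Depolarization of these cultures was checked with Fos and Npas4, which encode activity-induced transcription factors. At 0 h Fos had 38.17 and 34.55 normalized counts, that is, counts divided by the size factor of the library, against 6939 and 8222 at 2 h and 3915 and 3806 at 6 h. Npas4 went from 47.05 and 37.92 to 7467 and 9480 and then 3899 and 3614. The libraries held 25959298 to 28573067 expected counts each. The 2 h libraries differed more from each other than those of 0 h or 6 h, with an SD of the log2 replicate difference over 12290 genes of 0.429 against 0.246 and 0.214. That difference followed the GC content of the genes, with a Spearman correlation across genes, which are not independent replicates, of -0.719 at 2 h, against -0.392 at 0 h and -0.289 at 6 h.

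Against silenced neurons, 2 of the 10 genes were called higher after 2 h of KCl (Gpr3 and Pde4d) and 4 after 6 h (Gpr3, Adcy8, Pde4d and Pde10a). Between 2 h and 6 h, 4 were called higher (Gpr3, Adcy8, Pde4b and Pde10a). A gene was called when its DESeq2 adjusted p over all genes was at most 0.05 and its change was over 2-fold. Among all genes with an adjusted p, the calls in the higher direction made up 3.62% for 2 h against 0 h, 9.1% for 6 h against 0 h and 10.1% for 6 h against 2 h. None of the 10 genes was called lower, where 5.94%, 10.2% and 8.02% of all genes were, nor did edgeR call any of them lower. Without the fold threshold and without adjustment, DESeq2 gave p under 0.05 in the lower direction for 4 of the 10 at 2 h against 0 h (Adcy3, Pde4a, Pde4b and Pde10a), 2 at 6 h against 0 h (Adcy3 and Pde2a) and 1 at 6 h against 2 h (Pde2a). The share of all genes at that unadjusted p was not counted, and the percentages above belong to a stricter rule. The median log2 fold change of the 10 genes was 0.09 at 2 h and 0.40 at 6 h against 0 h, and 0.59 at 6 h against 2 h. Over all genes tested the medians of the same comparisons were 0.015, 0 and -0.005.

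**Figure D1:**
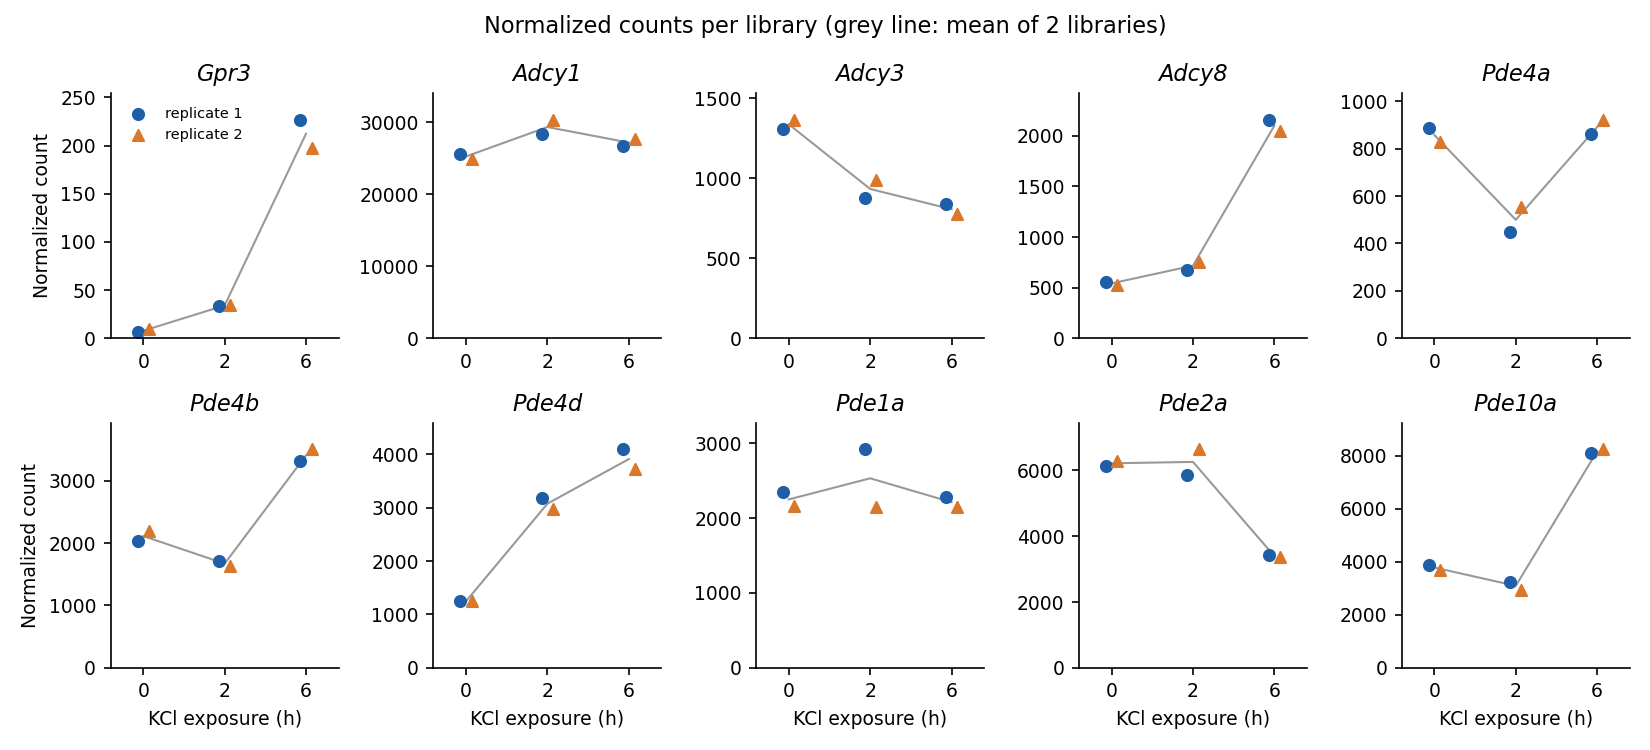
Normalized counts of the 10 genes (y axis, scaled for each gene from 0) against hours of KCl exposure (x axis). Points are single libraries, with replicate 1 as circles and replicate 2 as triangles, and the grey line joins the means of 2 libraries. Gpr3 is called higher at both steps and Pde4d at the first, Adcy8, Pde4b and Pde10a are called higher between 2 h and 6 h, and Pde2a lies lower at 6 h than at 2 h.

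Gpr3 (ENSMUSG00000049649) lies on the minus strand at chr4:133209340-133212536 of GRCm38. It was at the edge of detection in silenced neurons, with expected counts of 7 and 11 at 0 h, 34 and 33 at 2 h, then 212 and 184 at 6 h. In normalized counts this was 6.21 and 9.27, then 33.95 and 34.12, then 226.8 and 197.9, and the 3 time points did not overlap. Gpr3 rose 4.38-fold by 2 h (log2 fold change 2.13 ± 0.475 SE, DESeq2 adjusted p = 7.34e-05) and 27.3-fold by 6 h (4.77 ± 0.447, adjusted p = 6.27e-25). The second step, from 2 h to 6 h, was 6.24-fold (2.64 ± 0.34, adjusted p = 1.36e-13). With so few reads at 0 h the 95% interval of the 6 h change was wide, from 3.90 to 5.65 on the log2 scale. Gpr3 was called in all 15 alternative analyses of the 6 h change, with values between 4.52 and 5.10. The 2 h change was called in 14 of 15, and against a null of 2-fold its adjusted p was 0.472. Even at 6 h Gpr3 had only 6.52 and 5.80 TPM, the length-corrected level of RSEM, the lowest level of the 10 genes at every time point.

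The other receptors of the Gpr3 family, Gpr6 and Gpr12, are also active without an added ligand, and they moved the other way at 2 h. Gpr12 had 617.8 and 552.8 normalized counts at 0 h, 205.7 and 232.6 at 2 h, then 329.6 and 427.0 at 6 h. It fell by 1.42 on the log2 scale at 2 h (SE 0.205, DESeq2 adjusted p = 1.28e-10), and at 6 h it stood 0.63 below the 0 h level with an adjusted p of 0.00499 but under 2-fold. Gpr6 had 59.48 and 67.42 normalized counts at 0 h, 23.97 and 22.74 at 2 h, then 74.9 and 86.04 at 6 h. Gpr6 fell by 1.44 at 2 h (adjusted p = 0.0017) and rose by 1.78 from 2 h to 6 h (adjusted p = 2.96e-05). Its 2 h call was lost when either 0 h library was left out, at -1.52 (adjusted p = 0.0699) without replicate 1 and -1.34 (adjusted p = 0.137) without replicate 2, so that the p moved and the size little. At 0 h Gpr12 had 20.11 and 18.23 TPM and Gpr3 0.20 and 0.30, whereas at 6 h Gpr12 had 9.45 and 12.46 and Gpr3 6.52 and 5.80.

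The promoter windows of Gpr3 and Pde4d are shown because these were the genes of the group called at both 2 h and 6 h. They are RefSeq windows on GRCm38.p6, from 250 bases before to 50 bases after a transcript start, written 5′ to 3′ on the strand of the gene. The first lies at chr4:133212487-133212786 on the minus strand and the second at chr13:108653927-108654226 on the plus strand. Capitals mark matches, on either strand, to the cAMP response element core TGACG and to the AP-1 element TGACTCA.
Gpr3: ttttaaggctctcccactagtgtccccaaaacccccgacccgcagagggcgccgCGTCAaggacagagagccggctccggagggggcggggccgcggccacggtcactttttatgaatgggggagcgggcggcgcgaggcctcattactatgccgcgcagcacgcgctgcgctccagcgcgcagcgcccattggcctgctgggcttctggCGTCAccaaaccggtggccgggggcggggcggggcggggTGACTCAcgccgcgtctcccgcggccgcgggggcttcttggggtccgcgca
Pde4d: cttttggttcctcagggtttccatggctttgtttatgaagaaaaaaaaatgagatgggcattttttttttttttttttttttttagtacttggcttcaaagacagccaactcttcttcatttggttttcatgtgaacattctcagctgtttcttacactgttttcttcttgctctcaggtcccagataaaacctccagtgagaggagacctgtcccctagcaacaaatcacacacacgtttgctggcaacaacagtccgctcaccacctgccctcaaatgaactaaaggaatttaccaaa
The Gpr3 window held 2 TGACG cores, which read CGTCA on the strand shown and begin 196 and 40 bases before the start, and 1 AP-1 element beginning 1 base before it. GENCODE M21 gives Gpr3 3 transcript starts, and this window is at that of a transcript of 1116 bases (Gpr3-201). The deposited length of Gpr3 was 2518 bases at 0 h and 2272 to 2464 bases later, nearer to the 2518 bases of Gpr3-202, whose start at position 133211857 is outside the window. Neither window held the full element TGACGTCA, which itself contains the core. The Pde4d window held none of these motifs, though the annotation gives Pde4d 20 transcript starts and this window covers 1. Of all 32851 RefSeq windows of this length, 20.8% held TGACG, 5.2% held TGACTCA and 1.79% held TGACGTCA. Windows were matched for 9 of the 10 genes. TGACG was found in 1 of 3 windows of Pde4a, 1 of 4 of Pde4b, 1 of 4 of Pde1a and 1 of 5 of Pde2a, and in none of those of Adcy1, Adcy3 and Pde10a. A match is a run of letters, and binding was not measured here.

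Over the 6 libraries, the genes whose profile was closest to that of Gpr3 were Gem, Fndc9 and Nptx2. Closeness was the Euclidean distance of log2(normalized count + 1), centred on the 0 h mean of each gene, over 11183 genes with a mean of at least 100, and the distances were 1.23, 1.43 and 1.64. Gem, a small GTPase, had 28.41 and 28.65 normalized counts at 0 h, 161.8 and 147.8 at 2 h, then 399.1 and 508.7 at 6 h. For Nptx2, a secreted synaptic pentraxin, the values were 68.35 and 88.49, then 170.8 and 230.5, then 1041 and 1035. Fndc9 went from 108.3 and 110.4 through 352.5 and 310.1 to 1464 and 1537.

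Among the cyclases, Adcy8 rose, Adcy1 was the most abundant and was not called in any comparison, and Adcy3 was lower after KCl without reaching 2-fold. Adcy8 (ENSMUSG00000022376, chr15:64697084-64922296, minus strand) encodes a cyclase stimulated by calcium and calmodulin. Its libraries had 553.9 and 530.9 normalized counts at 0 h, 678.1 and 756.8 at 2 h, then 2160 and 2044 at 6 h. At 2 h the difference was small (log2 fold change 0.40 ± 0.134 SE, DESeq2 adjusted p = 0.013, 1.32-fold) and was not called. At 6 h Adcy8 had risen 3.88-fold (1.95 ± 0.131, adjusted p = 2.56e-48), of which 2.93-fold came between 2 h and 6 h (adjusted p = 9.15e-31). The 6 h call held in all 15 alternatives, with values between 1.71 and 1.99.

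Adcy1 (ENSMUSG00000020431, chr11:7063489-7178506, plus strand) encodes another cyclase that calcium and calmodulin stimulate, and it is abundant in forebrain neurons. It had 25630 and 24820 normalized counts at 0 h, 28290 and 30320 at 2 h, then 26690 and 27610 at 6 h. The 2 h libraries lay above those of 0 h, by 0.22 on the log2 scale with a 95% interval from 0.03 to 0.40 (DESeq2 adjusted p = 0.078). At 6 h the difference from 0 h was 0.11, with an interval from -0.08 to 0.29 (adjusted p = 0.384). With library totals in place of size factors the 6 h value turned to -0.14, and with the GC correction the values were 0.23 at 2 h and 0.21 at 6 h (DESeq2 adjusted p = 0.00208 and 0.00473), under 2-fold. Both intervals exclude a 2-fold change.

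Adcy3 (ENSMUSG00000020654, chr12:4133103-4213525, plus strand) encodes the cyclase known from olfactory neurons and primary cilia. In normalized counts it had 1308 and 1366 at 0 h, 876.8 and 989.4 at 2 h, then 837.8 and 774.4 at 6 h. Both later time points lay below 0 h without overlap. The log2 differences from 0 h were -0.52 ± 0.135 at 2 h (DESeq2 adjusted p = 0.00085) and -0.73 ± 0.136 at 6 h (adjusted p = 4.66e-07), under the 2-fold threshold. Its expected counts were not whole numbers in any of the 6 libraries, and its exons overlap those of Cenpo on the opposite strand, which had a mean count of 120, so its level is uncertain to that extent.

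Per length, Adcy1 made up most of the cyclase transcripts throughout. The 10 cyclase genes summed to 274.3 and 277.7 TPM at 0 h, 252.8 and 294.4 at 2 h, then 258.6 and 270.1 at 6 h, and these ranges overlap between 2 h and the other time points. Adcy1 held between 56.8% and 60.7% of this sum in every library. The share of Adcy8 was 3.01% and 2.88% at 0 h, 3.51% and 3.43% at 2 h, then 10.9% and 10.1% at 6 h. That of Adcy3 was 8.26% and 8.39% at 0 h, 5.13% and 5.02% at 2 h, then 4.74% and 4.31% at 6 h. Thus Adcy8 was below Adcy3 in share at 0 h and 2 h and above it at 6 h.

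The PDE4 enzymes hydrolyse cAMP and not cGMP, and the 3 members of this family differed in their course. Pde4d rose by 2 h and stayed high, Pde4b lay below its 0 h level at 2 h and above it at 6 h, and Pde4a was lower at 2 h, with overlapping levels at 0 h and 6 h. Pde4d (ENSMUSG00000021699, chr13:108449948-109953461, plus strand) had 1245 and 1247 normalized counts at 0 h, 3175 and 2975 at 2 h, then 4093 and 3727 at 6 h. It rose 2.47-fold by 2 h (95% interval of the log2 fold change 1.08 to 1.53, DESeq2 adjusted p = 5.62e-28) and 3.14-fold by 6 h (1.65 ± 0.114, adjusted p = 3.23e-45). The further difference from 2 h to 6 h was 0.35 ± 0.112 (adjusted p = 0.00599) and was not called. The 6 h call held in all 15 alternatives, and the 2 h call in 14, since against a null of 2-fold the adjusted p at 2 h was 0.254.

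Pde4b (ENSMUSG00000028525, chr4:102087543-102607259, plus strand) had 2031 and 2197 normalized counts at 0 h, 1706 and 1637 at 2 h, then 3313 and 3505 at 6 h. Its 3 time points did not overlap, with 2 h the lowest. Against 0 h the log2 differences were -0.34 ± 0.113 at 2 h (DESeq2 adjusted p = 0.0127) and 0.69 ± 0.111 at 6 h (adjusted p = 4.79e-09), neither over 2-fold. From 2 h to 6 h Pde4b rose 2.04-fold (1.03 ± 0.112, adjusted p = 1.55e-18). This value lies next to the 2-fold threshold and was called in 9 of 15 alternatives, with values between 0.95 and 1.07. It went under 2-fold with TMM factors (0.99), library totals (0.95), a GC correction (0.95 without and 0.95 with a replicate block) and without replicate 2 of 6 h (0.99).

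Pde4a (ENSMUSG00000032177, chr9:21165714-21213248, plus strand) had 886.8 and 827.6 normalized counts at 0 h, 446.4 and 553.1 at 2 h, then 860.3 and 921.8 at 6 h. The 2 h libraries lay below all others, and those of 0 h and 6 h overlapped. At 2 h the log2 difference from 0 h was -0.78 ± 0.163 (DESeq2 adjusted p = 2.07e-05), and from 2 h to 6 h it was 0.83 ± 0.164 (adjusted p = 2.21e-06), both under 2-fold. The step from 2 h to 6 h was called with a GC correction (1.01) and without replicate 2 of 2 h (1.01). Pde4a has a GC content of 56.8%, and its 2 h libraries differed by -0.31 (log2 of replicate 1 over replicate 2), in the direction of the GC trend between them. With the GC correction the 2 h difference from 0 h was -0.80. At 6 h against 0 h the difference was 0.06, with an interval from -0.26 to 0.37 (adjusted p = 0.812).

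**Figure D2:**
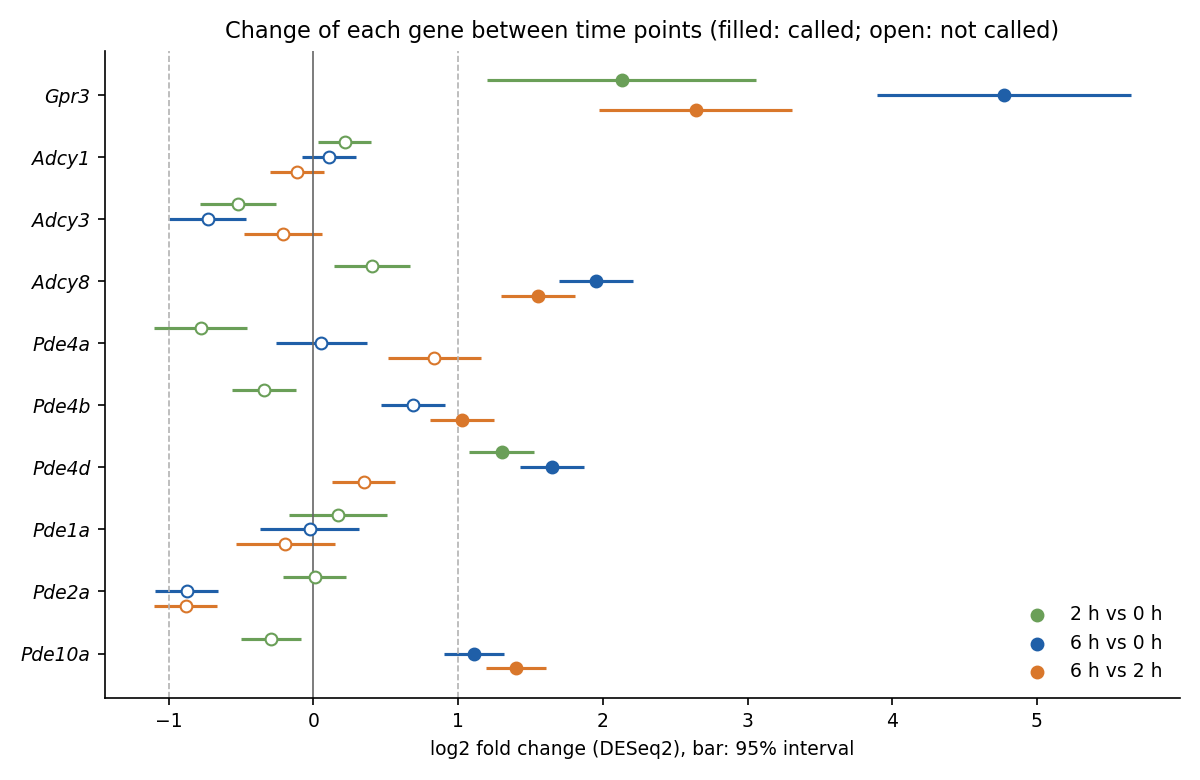
DESeq2 log2 fold change of each gene (x axis) with its 95% interval for 2 h against 0 h (green), 6 h against 0 h (blue) and 6 h against 2 h (orange), from 2 libraries per time point. Filled points are called, and dashed lines mark a 2-fold change; Gpr3 lies farthest to the right, at 4.77 for 6 h against 0 h, and no filled point lies below 0.

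The summed level of the 4 PDE4 genes went from 101.8 and 105.7 TPM at 0 h to 120.4 and 127.2 at 2 h and 194.1 and 194.4 at 6 h, with no overlap between time points. At 0 h Pde4b held the largest share, 48.5% and 49.1%, with 34.6% and 34.8% for Pde4d and 16.9% and 16.0% for Pde4a. By 2 h Pde4d held 66.2% and 63.9%, and Pde4b 27.6% and 28.4%. At 6 h the shares were 55.0% and 51.1% for Pde4d, and 37.4% and 40.3% for Pde4b. The share of Pde4a was 6.02% and 7.68% at 2 h and 7.47% and 8.49% at 6 h. Pde4d thus passed Pde4b in both libraries of both later time points. Pde4c, the remaining member, stayed at or under 0.30 TPM in every library.

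**Figure D3:**
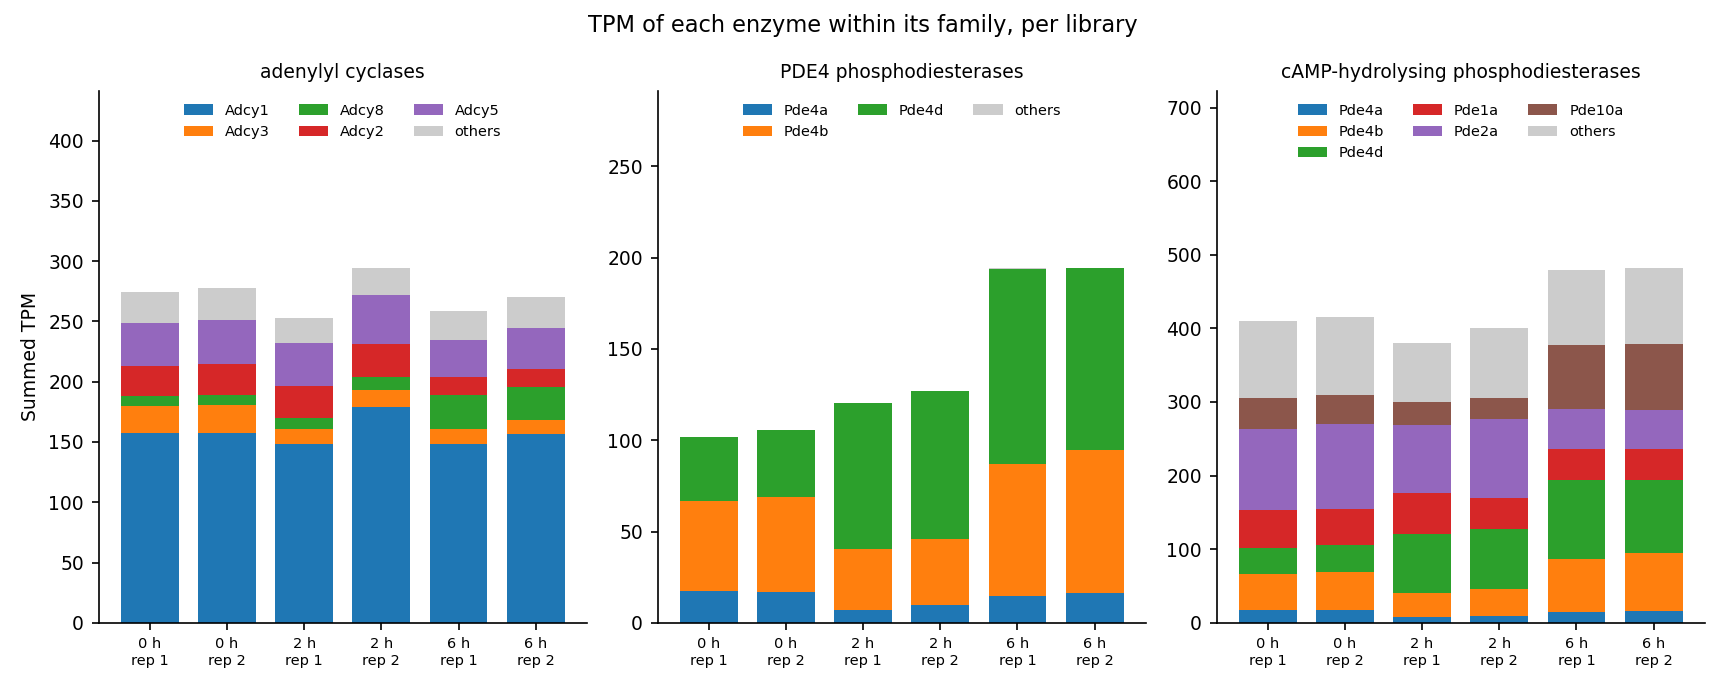
Summed TPM (y axis, from 0) of the cyclases, the PDE4 enzymes and all cAMP-hydrolysing phosphodiesterases in each of the 6 libraries (x axis), stacked by gene. The cyclase bars stay between 252.8 and 294.4 TPM with Adcy1 as the largest block, whereas the PDE4 bars grow from 101.8 and 105.7 TPM at 0 h to 194.1 and 194.4 at 6 h, mainly in the Pde4d and Pde4b blocks.

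The other phosphodiesterases of the group hydrolyse both cAMP and cGMP, and at 6 h Pde10a was higher, Pde2a was lower by less than 2-fold, and Pde1a was not called in any comparison. Pde10a (ENSMUSG00000023868, chr17:8525372-8986648, plus strand) is known for its abundance in striatal projection neurons. It had 3893 and 3682 normalized counts at 0 h, 3235 and 2956 at 2 h, then 8108 and 8251 at 6 h. At 2 h it was 0.29 ± 0.107 lower on the log2 scale (DESeq2 value -0.29, adjusted p = 0.0273, under 2-fold). Pde10a then rose 2.64-fold from 2 h to 6 h (1.40 ± 0.106, adjusted p = 1.72e-37), to 2.16-fold above 0 h (1.11 ± 0.106, adjusted p = 2.82e-24). The step from 2 h to 6 h was called in all 15 alternatives, with values between 1.32 and 1.48. The 6 h change against 0 h was under 2-fold with library totals (0.87), and against a null of 2-fold it was not called (adjusted p = 1). Summed TPM of 9 markers of striatal projection neurons was 91.1 to 93.9 at 0 h, 98.3 to 110 at 2 h and 104 to 111 at 6 h. That direction rests on Tac1, which rose (7.05 and 12.82 TPM at 0 h, 34.75 and 33.32 at 6 h). Without Tac1 the sum was 84.0 and 81.1 at 0 h and 75.8 and 71.1 at 6 h. At 6 h against 0 h, 1 of the 9 was called higher (Tac1) and 2 lower (Drd2 and Adora2a), and their part in the result for Pde10a was not tested.

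Pde2a encodes the phosphodiesterase that cGMP stimulates. It had 6143 and 6287 normalized counts at 0 h, 5874 and 6640 at 2 h, then 3419 and 3364 at 6 h, so that the 6 h libraries lay well below the overlapping libraries of 0 h and 2 h. The 2 h difference from 0 h was 0.01, with a 95% interval from -0.21 to 0.23 (DESeq2 adjusted p = 0.97). At 6 h the difference from 0 h was -0.87 ± 0.111 (adjusted p = 6.21e-14, a ratio of 0.546), and from 2 h it was -0.88 ± 0.111 (adjusted p = 4.14e-14). These values are under the 2-fold threshold, and the 6 h change against 0 h was called with library totals as size factors, at -1.12. The files carry Pde2a under the identifier ENSMUSG00000030653 with 3 transcripts, of which GENCODE M21 assigns 2 to Pde2a and 1 to Gm45837, a gene model at chr7:101410886-101512819 on the plus strand that runs through Pde2a. Exons there overlap those of Arap1 on the same strand, which had a mean count of 158.

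Pde1a (ENSMUSG00000059173, chr2:79834453-80129458, minus strand), an enzyme stimulated by calcium and calmodulin, had 2344 and 2157 normalized counts at 0 h, 2920 and 2145 at 2 h, then 2282 and 2144 at 6 h. The groups overlap in every comparison. Its log2 differences from 0 h were 0.17 at 2 h, with an interval from -0.17 to 0.51 (DESeq2 adjusted p = 0.55), and -0.02 at 6 h, with an interval from -0.37 to 0.32 (adjusted p = 0.928). Pde1a has the lowest GC content of the group, 43.6%, and its 2 h libraries differed by 0.44 on the log2 scale, the widest gap of the 10 genes at that time. With the GC correction the differences of Pde1a were 0.23 at 2 h and -0.20 at 6 h against 0 h, and -0.43 at 6 h against 2 h (DESeq2 adjusted p = 0.03, 0.0391 and 3.89e-06), all under 2-fold.

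Over 16 genes for cAMP-hydrolysing phosphodiesterases the summed level was 409.7 and 415.6 TPM at 0 h, 380.6 and 400.7 at 2 h, then 478.9 and 482.1 at 6 h. In TPM the 2 h libraries were the lowest and the 6 h libraries the highest, without overlap. TPM is scaled to one total per library, so the small 2 h difference can depend on that scaling. Pde2a averaged 113 TPM at 0 h and 100 at 2 h, but 6215 and 6257 normalized counts. The sum was not taken in normalized counts. Pde2a held 27.0% and 27.6% of this sum at 0 h and 24.5% and 26.7% at 2 h. Its TPM level was 110.8 and 114.6 at 0 h, 93.18 and 107.2 at 2 h, then 54.14 and 54.23 at 6 h. Pde10a had 41.08 and 40.63 TPM at 0 h, 30.39 and 29.44 at 2 h, then 86.38 and 88.86 at 6 h, so that at 6 h it lay above its 0 h level and Pde2a below.

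In the order of TPM levels, Adcy1 was first at every time point and Gpr3 last. At 0 h Pde2a came next after Adcy1, followed by Pde4b and Pde1a, whose libraries overlap, then Pde10a, Pde4d, Adcy3, Pde4a and Adcy8. At 2 h Pde4d had moved up behind Pde2a, ahead of Pde1a, Pde4b, Pde10a and Adcy3, and Adcy8 and Pde4a overlapped. At 6 h the order after Adcy1 was Pde4d, Pde10a, Pde4b, Pde2a, Pde1a, Adcy8, Pde4a and Adcy3. Pde4d reached 106.8 and 99.32 TPM there, against 148.8 and 156.7 for Adcy1.

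A further 75 genes of the cAMP pathway were described by role beside the 10. At 2 h against 0 h none of them was called higher and 7 were called lower by DESeq2, of 70 with an adjusted p, and their median log2 fold change was 0.006. For the higher direction, 13 of the 75 had an unadjusted p under 0.05, and edgeR called 0 higher and 7 lower as well. At 6 h against 0 h, 7 of 71 were called higher and 8 lower, with a median of 0.10, and at 6 h against 2 h, 6 of 67 were called higher and 4 lower, with a median of 0.062. The counts of called genes stand beside the percentages of all genes given above. Those percentages do not apply to the count at an unadjusted p, for which the share of all genes was not counted.

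Beside Gpr6 and Gpr12, 3 of 16 other Gs-coupled receptors fell at 2 h, against 5.94% of all genes. They were Drd1, the D1 dopamine receptor (-1.68), Mc4r, a melanocortin receptor (-1.43), and Htr4, a serotonin receptor (-2.06, with a mean normalized count of only 52.87 at 0 h and 12.68 at 2 h). The Mc4r call was lost without either 0 h library, at -1.50 and -1.34 (adjusted p = 0.0654 and 0.126), values of similar size. Drd1 rose again from 2 h to 6 h (DESeq2 adjusted p = 0.000262). Adcyap1r1, the PACAP receptor, was the most abundant receptor called, with 9223 and 9065 normalized counts at 0 h, 7489 and 8281 at 2 h, then 3740 and 3471 at 6 h. It fell by 1.34 on the log2 scale at 6 h against 0 h (SE 0.11, DESeq2 adjusted p = 2.36e-32). Adora2a, an adenosine receptor, fell by 1.29 (adjusted p = 0.00108), a call lost without replicate 2 of 0 h or replicate 1 of 6 h (adjusted p = 0.0917 and 0.0964). The count-poor prostaglandin receptor gene Ptger4 rose by 2.56, from a mean of 7.70 to 45.6.

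None of 7 genes for G protein alpha subunits and none of 3 for protein kinase A inhibitors was called in any comparison. At 6 h against 0 h, 5 of the 7 subunits were higher at a DESeq2 adjusted p of 0.05 or less but under 2-fold, where 23.7% of all genes were higher at that p at any fold. They were Gnas, which encodes Gs itself (1.33-fold), Gnai1 (1.83-fold) and Gnai3 (1.72-fold), which encode inhibitory subunits, Gnaz (1.76-fold) and Gnao1 (1.22-fold). Among the other cyclases Adcy7 fell by 1.14 at 6 h against 0 h, a call lost without replicate 2 of 6 h (-0.85). Adcy9 rose by 1.26 from 2 h to 6 h, with 419.9 and 435.7 normalized counts at 0 h, 268.6 and 282.2 at 2 h, then 646.3 and 676.5 at 6 h.

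Among 10 other cAMP-hydrolysing phosphodiesterases Pde3a and Pde4c rose and Pde1b fell at 6 h against 0 h. Pde3a, which cGMP inhibits, had 274.3 and 291.6 normalized counts at 0 h, 299.6 and 223.3 at 2 h, then 979.1 and 973.4 at 6 h (log2 fold change 1.79 ± 0.186, DESeq2 adjusted p = 2.62e-20). Pde1b, like Pde1a stimulated by calcium and calmodulin, went from 1465 and 1430 through 948.7 and 1284 to 614.2 and 616.3 (-1.23 ± 0.178, adjusted p = 4.63e-11). Pde4c had expected counts of 1 and 2 at 0 h and 9 and 13 at 6 h. Per length Pde1b stayed above Pde3a, with 14.37 and 14.66 TPM against 5.76 and 5.83 at 6 h. Of the cGMP-specific enzymes Pde9a fell at 2 h, by 1.18 (adjusted p = 3.77e-06).

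Downstream of cAMP, Prkar2a rose and Hcn3 and Hcn4 fell at 6 h against 0 h. Prkar2a, a regulatory subunit of protein kinase A, had 2904 and 2801 normalized counts at 0 h, 4743 and 4303 at 2 h, then 8980 and 8982 at 6 h (6 h against 0 h: 1.66 ± 0.105, DESeq2 adjusted p = 1.17e-53). It was the only kinase subunit called among 6. Hcn3 and Hcn4 encode channels gated by voltage and cyclic nucleotides. Hcn3 had 909.0 and 892.4 normalized counts at 0 h, 848.8 and 1091 at 2 h, then 305.0 and 294.7 at 6 h, where it had fallen by 1.59 on the log2 scale (SE 0.178, DESeq2 adjusted p = 1.02e-17). Hcn4 fell by 1.01 (adjusted p = 1.23e-08). Hcn4 lay next to the threshold and was called in 11 of 15 alternatives.

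Anchoring proteins, which hold protein kinase A at sites in the cell, were called in both directions. Akap13 (1.34), Akap8 (1.09) and Akap9 (1.08) rose at 6 h against 0 h and Akap1 fell (-1.09). Akap9 was called in 11 of 15 alternatives and Akap8 in 13. Akap5, which anchors the kinase at postsynaptic sites, had 1241 and 1155 normalized counts at 0 h, 676.1 and 507.6 at 2 h, then 1721 and 1737 at 6 h. It fell by 1.02 at 2 h (DESeq2 adjusted p = 4.88e-08), a value called in 10 of 15 alternatives, and rose by 1.55 from 2 h to 6 h. Without replicate 1 of 0 h the 2 h value was -0.96, and without replicate 2 of 2 h it was -0.84, both under 2-fold. With the GC correction it was -0.971, and -0.975 with a replicate block added, also under 2-fold.

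**Figure D4:**
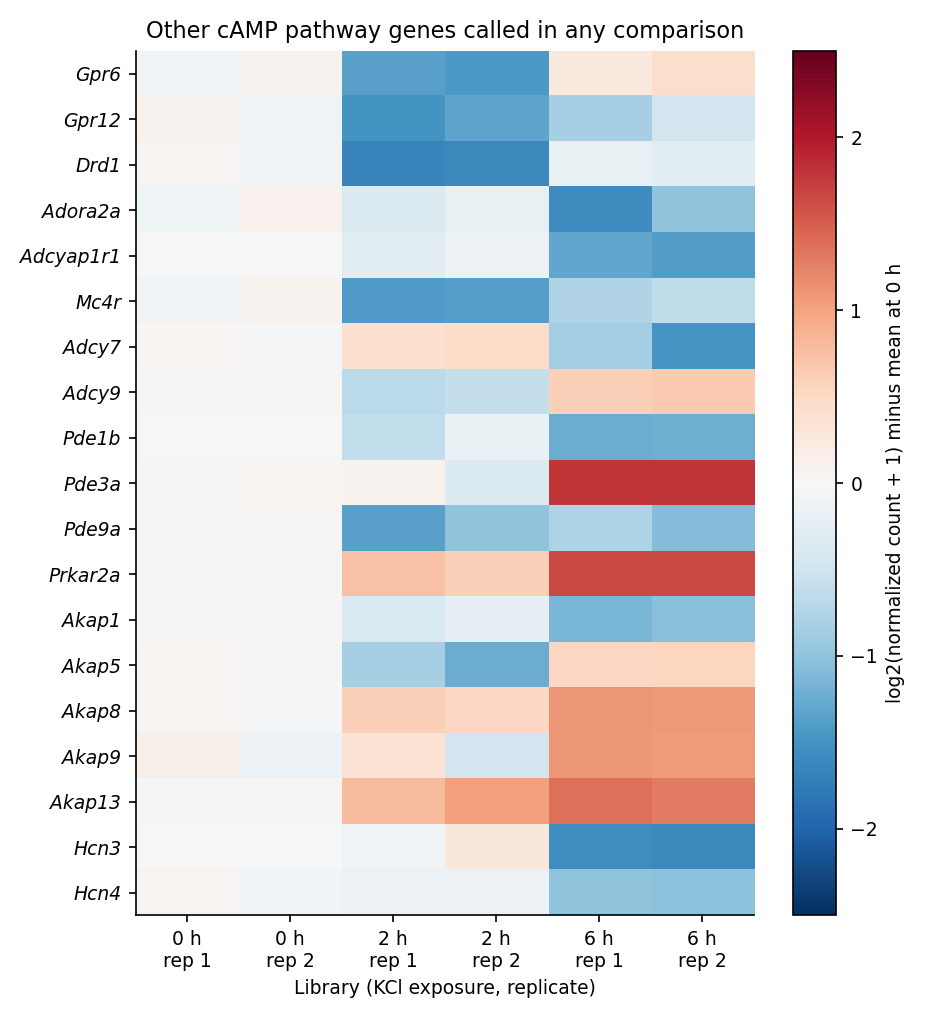
log2(normalized count + 1) minus the 0 h mean (colour, red above and blue below) for the 19 cAMP pathway genes outside the group of 10 that were called in any comparison and had at least 50 normalized counts on average (rows), in each of the 6 libraries (columns). At 6 h Pde3a and Prkar2a are the reddest rows and Hcn3 is among the bluest, and Gpr6, Drd1 and Mc4r are blue at 2 h and paler at 6 h.

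The effective length that RSEM gives for a gene is a mean over its transcripts weighted by abundance, so it moves with the mix of transcripts. With limma, a call needed a log2 ratio of at least 0.2 beside an adjusted p up to 0.05. None of the 9 genes tested was called at 2 h against 0 h, 6 h against 0 h or 6 h against 2 h, where 0.0356%, 0.525% and 0.116% of 11233 genes were. In simulated data the test called 62% of genes given a log2 shift of 0.3 at 2 h against 0 h, so shifts can go uncalled. Gpr3 was below the count minimum of 100 and was not tested. At an unadjusted p under 0.05 there were 0, 1 and 1 of the 9 genes, in both cases Pde10a, and the share of all genes at that p was not counted. Its effective length was 6679 and 6434 bases at 0 h, 6572 and 6314 at 2 h, then 5778 and 5823 at 6 h, so the 6 h libraries lay below all others. The log2 ratio of Pde10a at 6 h against 0 h was -0.18 ± 0.029 (limma adjusted p = 0.126). Pde10a has 11 annotated transcripts of 459 to 7769 bases. Pde4d, with 20 transcripts, had 2494 and 2405 bases at 0 h, 2456 and 2303 at 2 h, then 2359 and 2353 at 6 h, a log2 ratio at 2 h of -0.04 while its counts rose 2.47-fold. Adcy8 has 1 listed transcript, so its effective length says nothing of a mix.

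**Figure D5:**
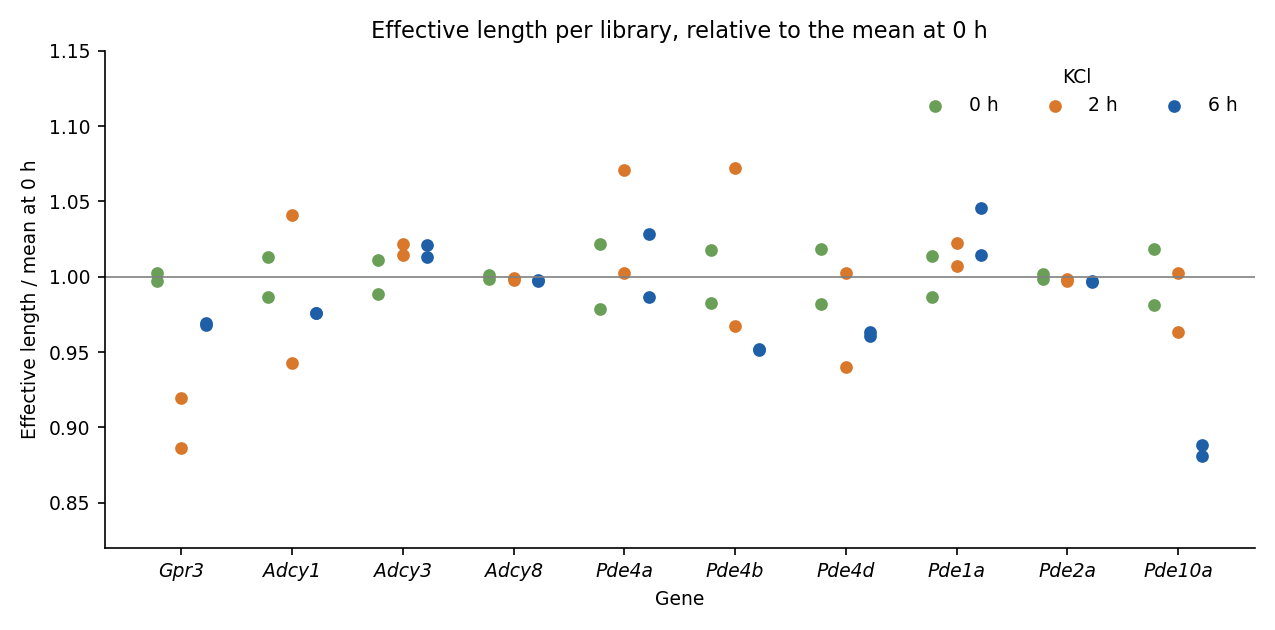
Effective length of each gene divided by its 0 h mean (y axis, which does not start at 0) for the 10 genes (x axis), with one point per library coloured by hours of KCl. The Pde10a points at 6 h lie below those of 0 h and 2 h; Gpr3, with 7 to 34 reads in the 0 h and 2 h libraries, was not tested.

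Marker genes of the cells in the culture were summed in TPM beside these results. TPM is scaled to one total per library. Library totals in place of size factors moved the median of all genes to -0.25 on the log2 scale at 6 h against 0 h. Small falls in these sums can thus depend on the scaling. Markers of neurons summed to 5420 to 5500 at 0 h, 4950 to 5030 at 2 h and 4960 to 5110 at 6 h. The lower sum came from Tubb3, a tubulin (1639 and 1679 TPM at 0 h, 666.1 and 794.0 at 6 h), the only 1 of the 6 called, and without it the sum was 3860 and 3750 at 0 h and 4300 and 4310 at 6 h. Those of cortical glutamatergic neurons were 424 to 427, 470 to 501 and 572 to 586, and those of GABAergic neurons 315 to 320, 413 to 414 and 573 to 616. Of the GABAergic list 2 of 5 were called higher at 6 h against 0 h, Gad1 and Gad2, which make GABA, and without Gad1 the sum was 162 and 158 at 0 h and 230.0 and 219 at 6 h. The astrocyte list was lower at 6 h in TPM, with 672 to 740, 649 to 688 and 504 to 524, and the progenitor list went from 77.1 to 81.6 at 0 h to 60.9 to 67.7 at 6 h. With size factors, the 5 astrocyte markers differed from 0 h at 6 h by -0.63 (Gfap) to -0.03 (Slc1a3) on the log2 scale. None of them was called. Oligodendrocyte lineage markers summed to 90.8 to 108 at 0 h and 82.8 to 85.7 at 6 h. Microglial markers summed to at most 4.6 and endothelial markers to at most 1.58 in any library, with the endothelial marker Flt1 under 0.1 TPM in each. Several of these lists moved with time, and their part in the results for the 10 genes was not tested. In bulk RNA, fewer cells of a type and less RNA per cell cannot be told apart.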

How the data were processed

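Poly(A) RNA-seq of 6 libraries was analysed, 2 for each time of KCl exposure, with groups and replicate numbers taken from the sample titles. As the labels and the study's methods describe, the authors made stranded paired-end libraries, trimmed reads with Trim Galore, mapped them to mm10 and estimated expression with RSEM. The submitters' processing notes name RSEM 1.3.0 and Bowtie2 2.2.9. The annotation release and the strand setting of RSEM are not given in the sources used here. The expected counts deposited by the authors are estimates that need not be whole and are not normalized. TPM values deposited by the authors are corrected for transcript length and scaled to one total per library. Effective lengths, in bases, were also deposited. The deposited FPKM column was not used.

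Of 43432 genes, 42462 were matched to a symbol in GENCODE M21 (GRCm38), which may be another release than the authors used: Adcy8 has a transcript of 6990 bases there and of 5032 in the deposited tables. Pde2a was matched through its transcript identifiers. Coordinates are 1-based.

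Expected counts were rounded and tested with DESeq2 1.42.0 in R 4.3.3, in a single fit of all 6 libraries with the time as the only term. DESeq2 and the thresholds are those of the study's methods, which do not state the design of the fit. Size factors were medians of ratios, tests were Wald tests, and Benjamini-Hochberg adjustment ran over all genes kept by independent filtering. Effective lengths were compared with limma 3.58.1 (moderated, with trend, on the log2 scale) for genes averaging at least 100 expected counts. With 2 libraries a group, p-values rest on a spread shared between genes. Expected counts have no molecular identifiers behind them. Scripts were tested on simulated data.

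The named genes are the 10 members, the pathway genes called in any comparison that averaged at least 50 normalized counts, Gpr6 and Gpr12, Fos and Npas4, and the 3 genes closest to Gpr3. Htr4, Ptger4, Pde4c, the G protein subunits and single markers were named after their values were seen. One gene of the pathway list is not reported here and was left out of its counts. The members, lists and tests were chosen with earlier results of these data known.

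Alternatives were edgeR 4.0.16 (quasi-likelihood), TMM factors, library totals, no independent filtering, a mean count of at least 10, a test against a fold change of 2, a replicate block, a GC correction, both together, and leaving out each library. For effective lengths, count minimums of 20 and 500 were tried.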

Additional observations from a re-analysis of the deposited data

Results flagged for a closer look

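4 genes lay below their 0 h level at 2 h and above it at 6 h, each with a DESeq2 adjusted p of at most 0.05 on both sides. The difference between the effects, which is the log2 fold change of 6 h against 2 h, was 1.40 for Pde10a, from -0.29 at 2 h to 1.11 at 6 h. For Pde4b it was 1.03, from -0.34 to 0.69. For Akap5, an anchoring protein, it was 1.55, from -1.02 to 0.53. For the cyclase Adcy9 it was 1.26, from -0.64 to 0.63. The genes were also required to be called at 6 h against 2 h and to average at least 50 normalized counts. This choice fixes the sign of the difference and a size over 2-fold, so it is given as a description. The share of all genes that meet the same conditions was not counted. The paper describes a cluster of differentially expressed genes that were lower at 2 h and higher at 6 h. Such a course was therefore not particular to the cAMP pathway. The 2 h and 6 h effects share the 0 h libraries, and all 4 genes had both 2 h libraries below both 0 h libraries and both 6 h libraries above them. The 2 h value of Akap5 was the only one of the 2 h effects over 2-fold.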

How the results depend on the processing

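Groups hold 2 libraries, so the calls rest on a spread shared between genes, and low counts limit Gpr3 at 0 h. The test against a fold change of 2 left 0 of the 10 genes at 2 h against 0 h (2 in the analysis reported), 3 at 6 h against 0 h (from 4) and 3 at 6 h against 2 h (from 4), and of the pathway list 0 at 2 h against 0 h (from 7), 4 at 6 h against 0 h (from 15) and 3 at 6 h against 2 h (from 10). Leaving out one library gave between 3 and 8 pathway genes at 2 h against 0 h, with 3 without replicate 1 of 0 h and 4 without replicate 2. Signs turned only for uncalled values: with library totals, which moved the median of all genes to -0.16 at 2 h and -0.25 at 6 h against 0 h, Pde2a at 2 h was -0.155, and Adcy1 and Pde4a at 6 h were -0.14 and -0.19. With one library left out, Pde1a ranged between -0.08 and 0.358 (2 h against 0 h), -0.081 and 0.039 (6 h against 0 h) and -0.386 and 0.052 (6 h against 2 h), and Pde2a between -0.099 and 0.085 (2 h against 0 h). The cause was not tested. The labels do not say whether replicate numbers pair the samples. The correlations of replicate deviations (0.281, -0.002 and 0.152), from 2 libraries per time point, cannot settle this. A replicate block left 2, 4 and 4 of the 10 genes called.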
